A study of Mus musculus with 8 samples.

Results

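The 34 genes described here copy the genome during S phase, supply its building blocks or control entry into S phase, and they were measured in crypts of the mouse small intestine. They were chosen by symbol from a list of origin, helicase, polymerase, nucleotide supply and G1/S control genes. Each symbol matched 1 of the 55880 genes in the deposited count table. All 34 passed the filter on low counts that left 14897 genes for testing. The libraries were 4 labelled miR-29ab1-/- (called labelled knockout here), a genotype that removes both microRNA genes of that cluster, and 4 labelled wild type (WT). All 8 are labelled as small intestinal crypts of C57BL/6N mice, and the series title places them before irradiation. The labels give no age, sex, litter or batch, and do not say whether each library is 1 animal. The p-values therefore set a group difference against the spread between these 8 libraries, which may not be a spread between animals. The series title gives the subject as miR-29ab, the fate of intestinal stem cells and their energy metabolism.

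Library totals ran from 13879472 to 17368666 counts. Counts at the deleted locus were read first. Mir29a had 0 counts in every library, as did Mir29b-2 and Mir29c, which lie on chromosome 1 outside that locus. A count of 0 for Mir29a therefore cannot show whether that microRNA is present or deleted. Mir29b-1 had 2, 5, 7 and 3 counts in labelled knockout replicates 1 to 4 and 0 in each wild-type library. Of the neighbours of the deleted locus on chromosome 6, Gm27019 had 227 to 327 counts in labelled knockout libraries and 0 in each wild-type library. The noncoding RNA gene Lncpint had 1831 to 2608 counts in labelled knockout libraries, against 11 to 16 in the wild-type libraries. Counts of the deleted hairpin, 2 to 7 per library, thus lay only in the group said to lack it. Whether this comes from the labels or from transcription at the targeted locus was not tested. The groups are therefore called by label throughout, and every direction given here rests on those labels. Crypt cell types were present in both groups: Olfm4, a stem cell marker, averaged 1864 ± 775 CPM in the group labelled knockout, against 1983 ± 653 CPM in wild-type libraries, and Lyz1, the lysozyme of Paneth cells, averaged 13143 ± 4769.8 CPM in the group labelled knockout, against 7079.7 ± 2039 CPM in wild-type libraries (SD, n = 4 each). CPM here are counts scaled to library size, itself adjusted by TMM, a method that equalises libraries on the bulk of their genes.

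DNA replication starts when the origin recognition complex, with Cdc6 and Cdt1, loads the ring-shaped Mcm2 to Mcm7 helicase on DNA in G1. In S phase Cdc45 and the GINS complex turn that ring into a running helicase, primase and polymerases copy both strands, and the Pcna clamp holds polymerases and repair enzymes at the fork. Many of these genes are switched on together at the G1/S boundary by E2F factors, once cyclin E and cyclin D kinases have released E2F from the retinoblastoma protein. In the intestine, S-phase cells sit mainly among the crypt base stem cells and the transit-amplifying cells above them, and differentiated villus cells no longer divide.

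Sequence shared by the genes was examined first in their promoters. RefSeq promoter windows (GRCm38.p6, 250 bases before to 50 bases after the start site) were at hand for 28 of the 34. An E2F match was any of TTTCCCGC, TTTCGCGC, TTTGCCGC or TTTGGCGC on either strand. It was found in 11 of the 28 promoters (39.3%), against 480 of 10505 tested genes with a window (4.57%) and 1 of 26 genes of mitosis and spindle (3.85%). The CHR element of late cell cycle genes (TTTGAA or TTCGAA, either strand) had the other distribution, with 5 of 28 replication promoters (17.9%), 21 of 26 mitotic promoters (80.8%) and 16.9% of tested genes. CCAAT, on either strand, was in 17 of 28 (60.7%), against 42.9% of tested genes, and TATAAA in 2 of 28 (7.14%), against 9.34%. No motif contains another, though matches on opposite strands can overlap. A match is a run of letters, not a measured binding site.

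Stretches around the E2F match nearest the start site are shown for the 6 genes with a match that had the highest wild-type mean CPM, which is not scaled by gene length. They let the core letters be compared between helicase, polymerase and ligase genes. They run 5′ to 3′ on the gene's strand, with E2F matches in capitals.
Mcm6 (chr1:128359719-128359778, minus strand): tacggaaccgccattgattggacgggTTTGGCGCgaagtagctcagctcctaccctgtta
Mcm7 (chr5:138171834-138171893, minus strand): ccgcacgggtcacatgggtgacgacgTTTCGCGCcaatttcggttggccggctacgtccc
Mcm5 (chr8:75109334-75109393, plus strand): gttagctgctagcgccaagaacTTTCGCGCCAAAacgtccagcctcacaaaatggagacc
Lig1 (chr7:13278826-13278875, plus strand): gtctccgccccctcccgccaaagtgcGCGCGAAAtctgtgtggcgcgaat
Pold1 (chr7:44548766-44548802, minus strand): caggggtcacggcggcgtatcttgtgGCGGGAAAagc
Mcm3 (chr1:20820263-20820319, minus strand): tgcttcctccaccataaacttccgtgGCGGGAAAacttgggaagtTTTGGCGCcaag
In Mcm5 matches on both strands overlap, and Mcm3 holds separate matches 20 and 39 bases after the start site. The other genes with a match were Orc1, Cdc6, Cdt1, Pola1 and Rfc3. Of the 11 genes, 8 had a match within 50 bases of the start site and 5 had more than 1.

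**Figure D1:**
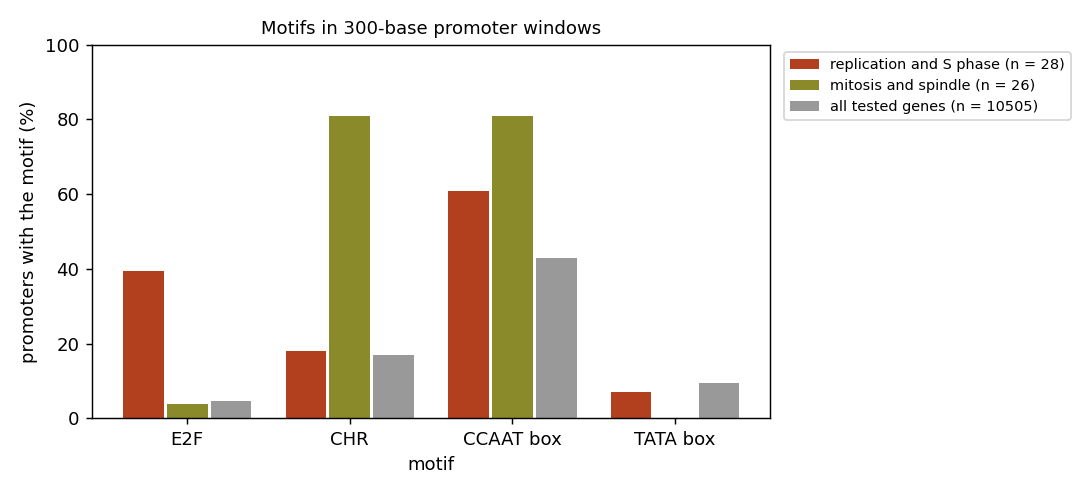
Share of promoter windows that hold each motif, in percent, for the replication and S-phase genes (28 promoters), mitosis and spindle genes (26) and all tested genes (10505). The E2F bar stands at 39.3% for the replication genes, against 3.85% for mitotic genes and 4.57% for all tested genes, while the CHR bar is highest, at 80.8%, for mitotic genes.

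The microRNAs named in the genotype pair with targets through a seed, bases 2 to 8 of the mature strand. The same mature miR-29b-3p is also encoded by Mir29b-2, and miR-29c-3p, from Mir29c, has the same seed. These further genes lie on chromosome 1, outside the miR-29ab1 cluster. The sequences of the microRNAs named in the genotype, from RefSeq (GRCm38.p6), are shown with the seed in capitals because both share it.
mmu-miR-29a-3p (chr6:31062673-31062694, minus strand): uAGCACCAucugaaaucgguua
mmu-miR-29b-3p (chr6:31063025-31063047, minus strand): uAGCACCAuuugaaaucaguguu
The matching site in a transcript is TGGTGCT. Among the 33 genes with an annotated 3' UTR of at least 50 bases (GENCODE M21, GRCm38), 1 held it (3.03%), against 1919 of 12386 tested genes (15.5%). Median 3' UTR length was 568 bases for the 33 and 1170 bases for tested genes. The gene with the site was Chaf1a, whose product is the large subunit of chromatin assembly factor 1 and places histones behind the fork. The site (chr17:56068201-56068230, plus strand) lies at base 666 of a 3' UTR of 2726 bases, with the seed match in capitals: gcccttcaacggccaTGGTGCTatggctct. Chaf1a had 24.03, 20.7, 28.5 and 13.8 CPM in labelled knockout replicates 1 to 4, against 31.1, 32.04, 24.03 and 31.95 CPM in wild-type replicates 1 to 4, with labelled knockout replicates 2 and 4 below every wild-type library, replicate 1 level with the lowest of them and replicate 3 inside their range. Its log2 fold change was -0.45 (SE 0.21).

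Between the groups, the 34 genes leaned lower in the libraries labelled knockout, but none changed by the test. In 33 of the 34 the log2 fold change of labelled knockout over wild type was below 0, where 48.0% of all tested genes lay below 0. The median was -0.32 (tested genes 0.011), about 0.799 of the wild-type level, and the range ran from -0.51 for Gins1 to 0.011 for Orc6. None of the 34 passed the test over all genes (edgeR quasi-likelihood test, Benjamini-Hochberg adjusted p = 0.994 to 0.998). In that comparison 3 of 14897 genes (0.0201%) passed. They included Lncpint and Gm27019, neighbours of the deleted locus (edgeR adjusted p = 2.29e-07 and 0.000386). At an unadjusted p under 0.05 the edgeR test gave 2 of the 34, Lig1 and Gins1. Over all tested genes it gave 402 of 14897 in either direction at that level. Both Lig1 and Gins1 were lower, beside 0.832% of tested genes that were lower at that level. DESeq2 and limma-voom also called none of the 34 after adjustment. The authors' deposited table, made from the same libraries and so not independent, had 0 of the 34 past an adjusted p of 0.05. Every labelled knockout library lay below every wild-type library for 1 of the 34, Gins1, against 0.618% of tested genes.

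The 4 labelled knockout libraries were uneven. Labelled knockout replicate 4 was the lowest of the 8 libraries in 30 of the 34 genes, against 29.1% of tested genes. Its median level was 0.531 of the wild-type mean, from 0.35 for Pola1 to 0.784 for Rfc3. Labelled knockout replicate 2 was below all 4 wild-type libraries in 29 genes (tested genes 19.7%), and replicate 1 in 17 (tested genes 17.2%). Labelled knockout replicate 3 lay near the wild-type libraries instead. It was above the wild-type mean in 23 of the 34 (tested genes 48.4%). It was the highest library of all 8 in 7 (tested genes 14.2%). Wild-type replicates 1 to 4 were highest in 7, 12, 0 and 6 (tested genes 14.2%, 9.57%, 7.44% and 9.04%).

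Leaving out labelled knockout replicate 4 moved the median to -0.17 with 32 of 34 below 0, and leaving out labelled knockout replicate 3 moved it to -0.48 with 34 of 34 below 0. None of the 34 was called in either fit (edgeR). The same order of the labelled knockout libraries, replicate 4 lowest, then 2, then 1, then 3, was found in 24 of the 34 genes (70.6%), against 14.7% of tested genes. The SD of log2 CPM was larger in the group labelled knockout than in the wild-type group for 33 of 34 (97.1%), against 67.4% of tested genes. Within the wild-type group, replicate 3 was the lowest in 25 of 34 (73.5%, against 25.3% of tested genes).

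**Figure D2:**
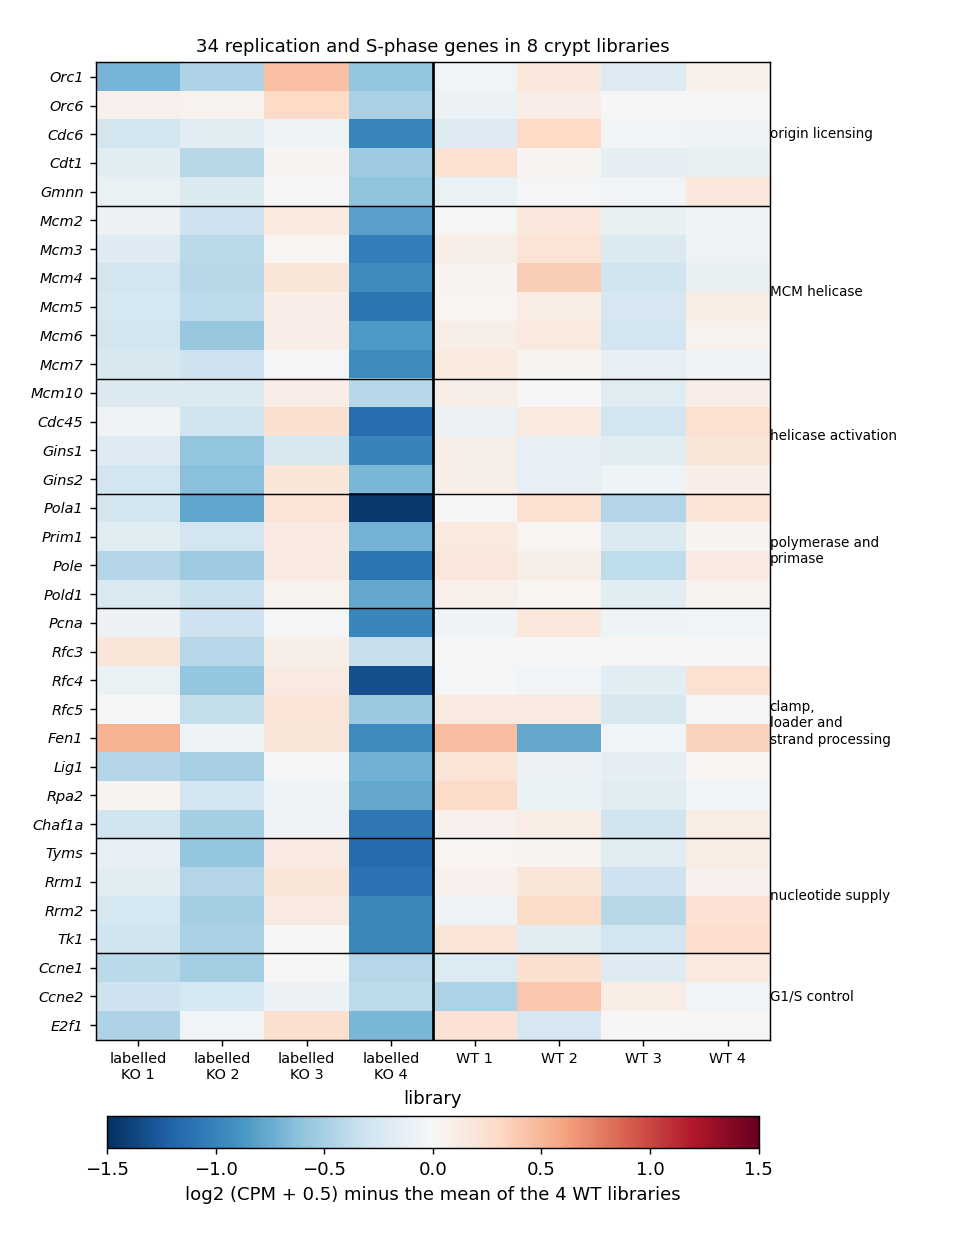
Log2 (CPM + 0.5) of each of the 34 genes in each library, minus the mean of the 4 wild-type libraries, with labelled knockout libraries on the left and genes grouped by role. The column of labelled knockout replicate 4 is blue throughout, replicates 1 and 2 are mostly pale blue, and replicate 3 is near the wild-type columns or above them.

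Origin licensing was represented by Orc1, Orc6, Cdc6, Cdt1 and Gmnn. Cdt1, the loader of the Mcm ring, had 43.4, 36.6, 50.5 and 33.3 CPM in labelled knockout replicates 1 to 4, against 57.2, 50.1, 44.03 and 45.2 CPM in wild-type replicates 1 to 4. Its log2 fold change was -0.26 (SE 0.15), and of the labelled knockout libraries only replicate 3 lay inside the wild-type range. Geminin (Gmnn), the inhibitor that binds Cdt1 after origins have fired, had 24.4, 22.6, 26.05 and 17.1 CPM in the labelled knockout libraries, against 24.5, 25.7, 25.6 and 29.5 CPM in the wild-type libraries, with a log2 fold change of -0.22 (SE 0.15). Cdc6, the ATPase that joins the origin complex to Cdt1, had a log2 fold change of -0.35, and its value in labelled knockout replicate 4 was 0.484 of the wild-type mean. Orc1, the largest subunit of the origin complex, was low, with 43 to 129 counts in labelled knockout libraries and 80 to 97 in wild-type ones. Its values were 3.16, 3.77, 7.60 and 3.45 CPM in the labelled knockout libraries, against 5.27, 6.08, 4.68 and 5.72 CPM in the wild-type libraries, so labelled knockout replicate 3 stood above and the other 3 below every wild-type library. The log2 fold change of Orc1, -0.27 with all libraries, was -0.65 without labelled knockout replicate 3. Orc6, the smallest origin subunit, was the only gene of the 34 above 0, at 0.011 (SE 0.17), a sign that turned in 6 of the 14 alternative fits.

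The Mcm2 to Mcm7 genes encode the hexameric helicase, and their libraries kept nearly the same order from gene to gene. Mcm6 (chromosome 1, 128331590 to 128359664, minus strand, GRCm38) had 108, 88.00, 139.6 and 71.5 CPM in labelled knockout replicates 1 to 4, against 139, 144, 107 and 135 CPM in wild-type replicates 1 to 4. Mcm5 had 72.4, 66.3, 93.5 and 40.8 CPM in the labelled knockout libraries, against 88.6, 93.7, 73.2 and 94.3 CPM in the wild-type libraries, and Mcm4 had 46.5, 41.95, 63.7 and 28.9 CPM in the labelled knockout libraries, against 57.7, 73.04, 45.6 and 52.1 CPM in the wild-type libraries. In each of the 6 genes labelled knockout replicate 4 was the lowest library, replicate 2 the next lowest, and the groups overlapped through replicate 3 and, in 4 of the 6, replicate 1. Log2 fold changes ran from -0.37 (Mcm6) through -0.36 (Mcm3), -0.36 (Mcm5), -0.34 (Mcm7) and -0.33 (Mcm4) to -0.23 (Mcm2), with SEs of 0.18 to 0.23. Without labelled knockout replicate 4 they ran from -0.23 (Mcm6) to -0.074 (Mcm2).

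The subunits were also compared per gene length, as the authors' FPKM (counts per kilobase of gene length, times 1 constant per library). Mcm2 was the lowest and Mcm6 the highest of the 6 in all 8 libraries. The ratio of highest to lowest was 2.32, 2.19, 2.54 and 2.54 in labelled knockout replicates 1 to 4, against 2.75, 2.60, 2.33 and 2.85 in wild-type replicates 1 to 4. Summed over the 6 subunits, the level was 96.2, 84.7, 120.5 and 59.0 FPKM in the labelled knockout libraries, against 118, 128, 97.1 and 113 FPKM in the wild-type libraries. The sums thus differed 2.17-fold across libraries while the order of the lowest and the highest subunit stayed as it was. FPKM depend on the gene length column of the deposited table, which gives 6956 bases for Mcm2 and 4666 for Mcm6.

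Mcm10, Cdc45, Gins1 and Gins2 turn the loaded ring into an active helicase. Gins1, a GINS subunit, had 8.30, 6.18, 8.01 and 4.54 CPM in labelled knockout replicates 1 to 4, against 10.2, 8.78, 8.54 and 10.96 CPM in wild-type replicates 1 to 4. Its log2 fold change was -0.51 (SE 0.22), 0.703 of the wild-type level, with an edgeR unadjusted p of 0.0432 and an adjusted p of 0.994. All 4 labelled knockout libraries were below the lowest wild-type library, the closest being 8.30 CPM against 8.54 CPM. Without labelled knockout replicate 4 the value was -0.36. Gins2, its partner subunit, had a log2 fold change of -0.33, but 67.3% of its exon bases overlap exons of Gse1 on the other strand. The library kit marks strand, per the labels, but the strand setting of the counting is not stated, so its level is uncertain. Cdc45, the helicase co-factor, had 14.8, 12.6, 18.4 and 6.73 CPM in the labelled knockout libraries, against 14.6, 17.2, 12.6 and 18.3 CPM in the wild-type libraries. Its log2 fold change was -0.25, and -0.032 without labelled knockout replicate 4. Mcm10, a fork scaffold protein, had a log2 fold change of -0.19, and in labelled knockout replicate 4 it stood at 0.737 of the wild-type mean.

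The polymerase genes Pola1, Prim1, Pole and Pold1 included the gene that stood lowest in labelled knockout replicate 4 against the wild-type mean, Pola1. Pola1, the catalytic subunit of the priming polymerase alpha, had 23.2, 16.2, 32.6 and 10.02 CPM in labelled knockout replicates 1 to 4, against 28.5, 33.2, 20.6 and 32.4 CPM in wild-type replicates 1 to 4. Its values spanned 3.31-fold across the 8 libraries, and its log2 fold change was -0.48 (SE 0.32), or -0.25 without labelled knockout replicate 4. Pole, which copies the leading strand, had 25.3, 23.4, 37.5 and 15.9 CPM in the labelled knockout libraries, against 38.7, 36.7, 26.4 and 37.4 CPM in the wild-type libraries, with a log2 fold change of -0.45 (SE 0.24). The log2 fold change of Pold1, which copies the lagging strand, was -0.29 (SE 0.16), and that of Prim1, the primase that lays the RNA primers, -0.24 (SE 0.18). In all 4 genes labelled knockout replicate 3 lay inside the wild-type range and replicate 4 below it.

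Pcna, the sliding clamp, was the most abundant of the 34 per gene length. It averaged 43.6 ± 11.6 FPKM in the group labelled knockout, against 53.9 ± 4.33 FPKM in wild-type libraries (SD, n = 4 each). By library it had 122, 105, 129 and 66.01 CPM in the labelled knockout libraries, against 125, 145, 125 and 127 CPM in the wild-type libraries, so that labelled knockout replicate 3 lay inside the wild-type range, replicate 1 just under it, and replicates 2 and 4 further below. Lig1, which seals Okazaki fragments, had 52.8, 50.5, 70.5 and 43.4 CPM in labelled knockout replicates 1 to 4, against 81.8, 67.3, 65.4 and 72.9 CPM in wild-type replicates 1 to 4. Its log2 fold change was -0.40 (SE 0.16), with an edgeR unadjusted p of 0.0289 and an adjusted p of 0.994, and -0.31 without labelled knockout replicate 4. Labelled knockout replicates 1, 2 and 4 were below the wild-type range and replicate 3 was inside it. Among the clamp loader subunits, log2 fold changes were -0.10 for Rfc3, -0.38 for Rfc4 and -0.17 for Rfc5, and in labelled knockout replicate 4 Rfc4 stood at 0.38 of the wild-type mean and Rfc3 at 0.784. Rpa2, of the complex that coats single-stranded DNA, had a log2 fold change of -0.26 (SE 0.19). For Chaf1a, 52.5% of exon bases overlap exons of Ubxn6 on the other strand, which adds uncertainty to the counts given above.

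Fen1, the flap endonuclease of Okazaki fragments, was the least abundant of the 34 per gene length, at 1.25 ± 0.549 FPKM in the group labelled knockout, against 1.31 ± 0.504 FPKM in wild-type libraries (SD, n = 4 each). Exons of the antisense gene Gm10143 cover 78.8% of its exon bases and those of Tmem258 a further part, 84.2% together, and Gm10143 itself had 61 counts over all 8 libraries. Whether reads in the overlap were left uncounted was not tested. Its log2 fold change was -0.063 (SE 0.42), the largest SE of the 34, and 0.18 without labelled knockout replicate 4. Pcna has a processed pseudogene, Pcna-ps2, with 32 to 38 counts in labelled knockout replicates 1 to 3 and 163 in replicate 4, against 45 to 52 counts in wild-type replicates 1 to 3 and 314 in replicate 4. Pcna itself had 843 to 2185 counts in the group labelled knockout and 1889 to 2319 in wild-type libraries. Reads that could come from either copy cannot be assigned.

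Among the 7 roles, nucleotide supply had the lowest median in labelled knockout replicate 4, 0.476 of the wild-type mean. Rrm1 and Rrm2 encode the large and small subunits of ribonucleotide reductase, which makes deoxynucleotides. Rrm1 had 81.6, 67.4, 103 and 42.1 CPM in labelled knockout replicates 1 to 4, against 95.6, 104, 73.3 and 95.5 CPM in wild-type replicates 1 to 4, and Rrm2 had 30.1, 25.4, 40.01 and 18.3 CPM in the labelled knockout libraries, against 34.5, 43.9, 27.02 and 42.4 CPM in the wild-type libraries. Both had labelled knockout replicate 3 within the wild-type range and replicates 2 and 4 below it. For thymidylate synthase, Tyms, the log2 fold change was -0.36 (SE 0.24), and for thymidine kinase, Tk1, it was -0.42 (SE 0.21). Without labelled knockout replicate 4 the 4 log2 fold changes were -0.13 (Rrm1), -0.21 (Rrm2), -0.17 (Tyms) and -0.26 (Tk1).

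The G1/S control genes Ccne1, Ccne2 and E2f1 differed in which library was lowest, which was labelled knockout replicate 4 for 1 of the 3, E2f1. Cyclin E1 (Ccne1), which activates Cdk2 at the start of S phase, had 7.64, 7.09, 10.4 and 7.52 CPM in labelled knockout replicates 1 to 4, against 8.88, 12.3, 8.95 and 11.5 CPM in wild-type replicates 1 to 4. Its level in labelled knockout replicate 4 was close to that in replicates 1 and 2. Cyclin E2 (Ccne2) had 8.08, 8.39, 9.55 and 7.60 CPM in the labelled knockout libraries, against 7.17, 13.6, 10.99 and 9.89 CPM in the wild-type libraries, with the lowest value in wild-type replicate 1. Log2 fold changes were -0.35 (SE 0.19) for Ccne1 and -0.31 (SE 0.21) for Ccne2, and -0.31 and -0.26 without labelled knockout replicate 4. E2f1, the activating E2F factor, had 9.55, 13.01, 15.9 and 8.14 CPM in the labelled knockout libraries, against 15.6, 11.2, 13.4 and 13.5 CPM in the wild-type libraries, with a log2 fold change of -0.20 (SE 0.22). The median level of these 3 in labelled knockout replicate 4 was 0.722 of the wild-type mean, above that of the Mcm genes, 0.512; the difference between roles was not tested.

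**Figure D3:**
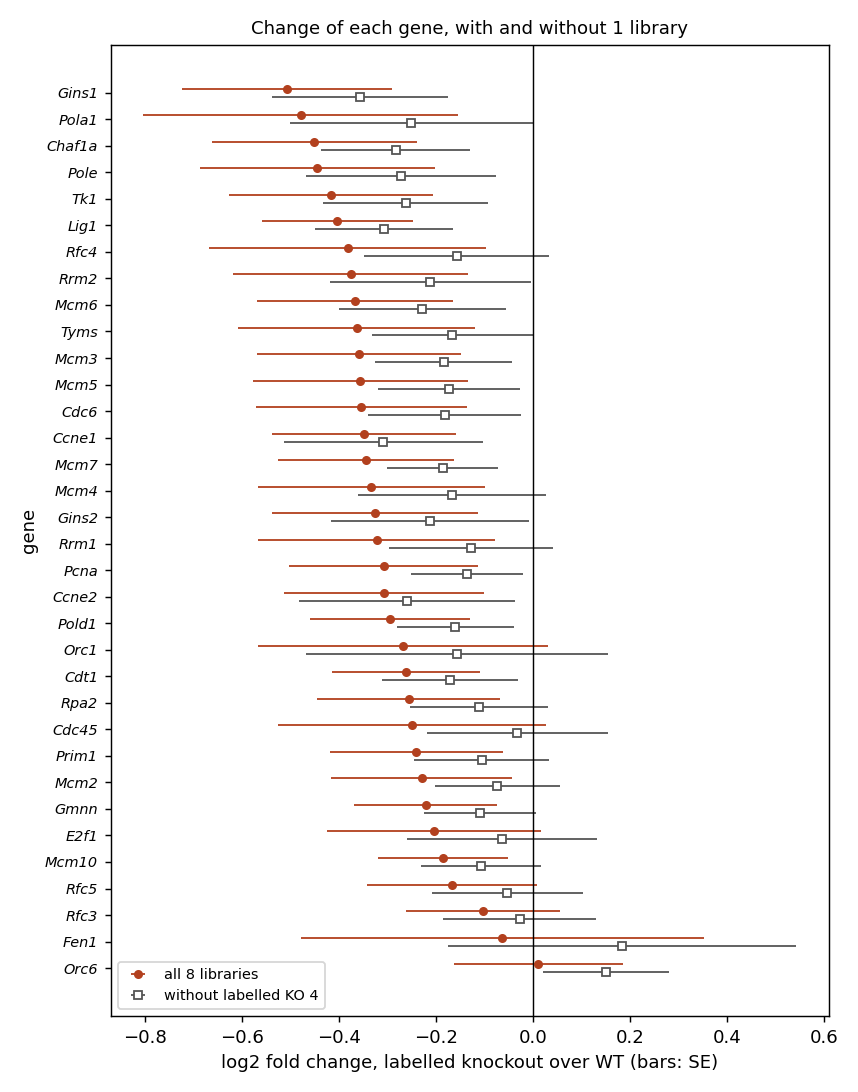
Log2 fold change of labelled knockout over wild type for each gene with its SE, fitted with all 8 libraries (filled) and without labelled knockout replicate 4 (open). All but Orc6 lie below 0 with 8 libraries, and the open points lie closer to 0, except those of Fen1 and Orc6, which lie above it.

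Levels per gene length spanned 41.2-fold over the 34 genes in the wild-type group. Pcna, Mcm6, Mcm7, Mcm5 and Gmnn were the 5 highest in both groups, in that order. Orc1 and Fen1 were the lowest in both groups, Orc1 at 1.28 ± 0.596 FPKM in the group labelled knockout, against 1.55 ± 0.178 FPKM in wild-type libraries (SD, n = 4 each). The cyclin E genes, E2f1 and Cdc6 held ranks 25 to 32 in the wild-type group, with Ccne1 at 3.04 ± 0.561 FPKM in the group labelled knockout, against 3.87 ± 0.672 FPKM in wild-type libraries and Cdc6 at 2.32 ± 0.605 FPKM in the group labelled knockout, against 2.97 ± 0.49 FPKM in wild-type libraries (SD, n = 4 each). Of the 33 neighbouring pairs in the wild-type order, 27 differed by less than the larger of their SDs.

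**Figure D4:**
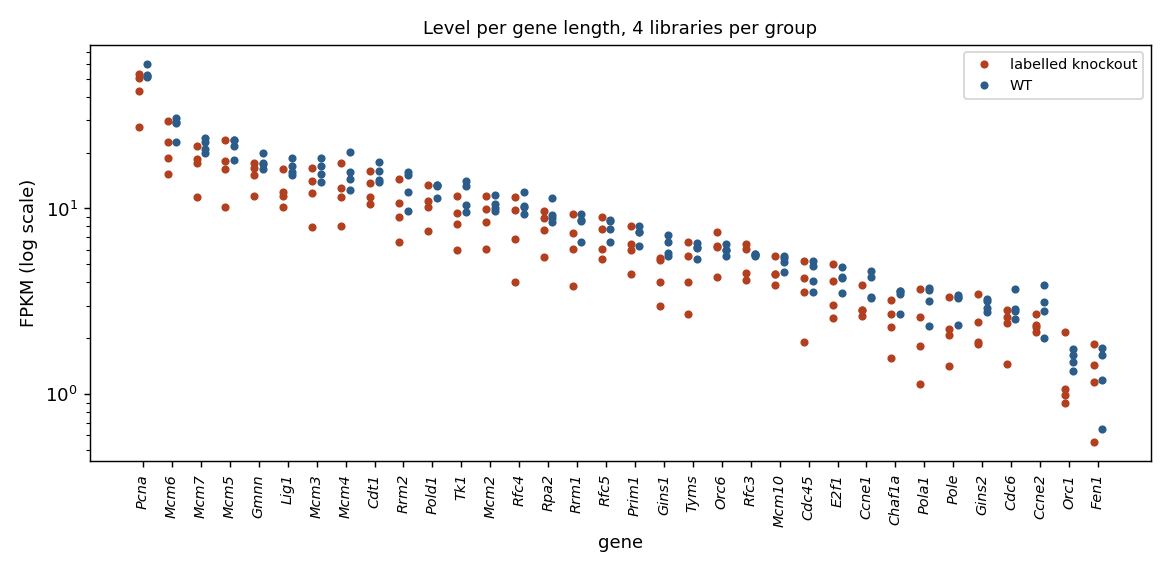
The authors' FPKM of each gene in the 4 labelled knockout and 4 wild-type libraries, on a log scale, ordered by the wild-type mean. Pcna is at the top, Mcm6, Mcm7 and Mcm5 follow, and Orc1 and Fen1 are at the bottom; the labelled knockout points spread wider than the wild-type points in 33 of 34 genes (by the SD of log2 CPM).

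Ratios between 6 pairs of the genes were compared within each library, where the scaling between libraries cancels. None of the 6 passed the test (exact two-sided permutation test, 70 arrangements, whose smallest p is 0.0286; Benjamini-Hochberg adjusted p = 0.914 for each pair, n = 4 each). After adjustment over 6 pairs a single pair could not go below 0.171, and 4 pairs at the smallest p would have been needed to pass, so the design could hardly call any 1 ratio. The log2 ratio of Cdt1 over its inhibitor Gmnn was 0.85 ± 0.12 in the group labelled knockout, against 0.88 ± 0.26 in the wild-type group. For Rrm2 over Rrm1, subunits of 1 enzyme, it was -1.34 ± 0.11 in the group labelled knockout, against -1.32 ± 0.14 in the wild-type group. The ratio of Pole over Pold1 had the smallest unadjusted p, 0.257 by the exact permutation test, at -1.03 ± 0.17 in the group labelled knockout, against -0.86 ± 0.14 in the wild-type group. For Gins1 over Gins2 it was -0.52 ± 0.26 in the group labelled knockout, against -0.37 ± 0.075 in the wild-type group, for Ccne1 over Ccne2 -0.051 ± 0.14 in the group labelled knockout, against 0.019 ± 0.27 in the wild-type group, and for Cdc6 over Orc1 1.39 ± 0.48 in the group labelled knockout, against 1.44 ± 0.17 in the wild-type group (all SD, n = 4 each). The ratio of Gins1 over Gins2 is uncertain, because Gins2 exons overlap those of Gse1 on the other strand.

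Genes of the wider replication pathway also leaned lower without passing the test. On the log2 fold change scale, 14 of 15 further licensing and firing genes lay below 0 (median -0.24), with Mtbp at -0.36 (SE 0.18) and Wdhd1 at -0.27 (SE 0.16). All 18 tested genes among 19 further polymerase, clamp and loader subunits lay below 0 (median -0.21), with Rpa1, the large single-strand binding subunit, at -0.37 (SE 0.16) and Dscc1 at -0.52 (SE 0.24). So did all 13 chromatin and fork factors (median -0.29), with Hells, a chromatin remodeller, at -0.53 (SE 0.19) and Uhrf1, which guides DNA methylation at forks, at -0.48 (SE 0.20). Further nucleotide genes had 14 of 15 below 0 (median -0.22). Samhd1, which breaks deoxynucleotides down, was the 1 above 0, at 0.41 (SE 0.22), and 0.15 without labelled knockout replicate 4. It had 151, 134, 111 and 239.5 CPM in the labelled knockout libraries, against 124, 114, 117 and 122 CPM in the wild-type libraries. Dck had a log2 fold change of -0.39 (SE 0.21). Further G1/S regulators had 19 of 27 tested below 0 (median -0.088), with Tfdp1, the E2F partner, at -0.31 (SE 0.17) and Rbl2, a retinoblastoma relative, at 0.23 (SE 0.14). Without labelled knockout replicate 4, Wdhd1 was at -0.15, Dck at -0.24 and Tfdp1 at -0.18. None of these 88 tested genes passed the edgeR threshold, which 0.0201% of all tested genes passed. Without labelled knockout replicate 4 the 5 medians were -0.11, -0.066, -0.16, -0.076 and -0.053.

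Genes of mitosis and spindle, which act later in the same cycle, were set beside the replication genes. Their mean log2 CPM was 5.20, 4.90, 5.62, 4.16 in labelled knockout replicates 1 to 4, against 5.60, 5.11, 4.95, 5.44 in wild-type replicates 1 to 4. For the 34 replication genes it was 4.72, 4.53, 5.01, 4.06 in labelled knockout replicates 1 to 4, against 4.97, 4.98, 4.74, 4.99 in wild-type replicates 1 to 4. Both were lowest in labelled knockout replicate 4 and highest in replicate 3. The mitotic median log2 fold change of -0.26 with all libraries became -0.037 without labelled knockout replicate 4, with 24 of 32 below 0. For the replication genes the values without that library were -0.17 and 32 of 34. Mki67, the proliferation marker, had 236, 191, 289.8 and 125 CPM in the labelled knockout libraries, against 339, 248, 211 and 310.2 CPM in the wild-type libraries, and a log2 fold change of -0.40 (SE 0.26), or -0.21 without labelled knockout replicate 4. The difference between the 2 lists was not tested.

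Markers of some other crypt cells differed strongly between these libraries. Enterocyte markers, of the absorptive cells that no longer divide, summed to 33522, 40720.0, 16990.1 and 90187 CPM in labelled knockout replicates 1 to 4, against 21318, 40525, 39193 and 35536 CPM in wild-type replicates 1 to 4. Labelled knockout replicate 4, lowest for the replication genes, was thus highest here, and labelled knockout replicate 3 was lowest. For the replication genes labelled knockout replicate 3 was highest by mean log2 CPM, at 5.01 against 4.99 in wild-type replicate 4. By summed CPM, the measure used here, wild-type replicate 2 was highest for them, at 1551 against 1526 CPM in labelled knockout replicate 3. Anpep, the most abundant by its mean over all 8 libraries, had 4639.9, 5989, 2811 and 16900.2 CPM in the labelled knockout libraries, against 3652, 6467, 6473 and 4658 CPM in the wild-type libraries. Of the 20 enterocyte markers 18 lay above 0 in the comparison of groups, none passed the test, and none was at 0 counts. Without labelled knockout replicate 4 the direction turned, with 15 of the 20 below 0. Their part in the lower replication values was not tested, and in bulk libraries fewer cycling cells and less of these RNAs per cycling cell cannot be told apart.

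The 14 stem cell markers were lowest in labelled knockout replicate 4 in 10 genes and summed to 4346, 3066, 4171 and 1755 CPM in labelled knockout replicates 1 to 4, against 4683, 2898, 2750.5 and 3187 CPM in wild-type replicates 1 to 4. Over the groups they did not lean lower: 10 of the 14 lay above 0 (median log2 fold change 0.087), and without labelled knockout replicate 4 only 1 lay below 0 (median 0.24), with none past the test in the comparison of all libraries. Interferon response genes summed to 314, 302, 534 and 2843 CPM in labelled knockout replicates 1 to 4, against 569, 533, 360.5 and 391 CPM in wild-type replicates 1 to 4, with 15 of 15 above 0 and none past the test. Without labelled knockout replicate 4, 14 of the 15 lay below 0. Paneth cell markers summed to 45410.4, 63847, 37761 and 21226 CPM in labelled knockout replicates 1 to 4, against 25529.6, 23031, 28971 and 28893 CPM in wild-type replicates 1 to 4, highest in labelled knockout replicate 2, with 12 of 13 above 0 and none past the test. The 7 red blood cell markers, of which Slc4a1 was at 0 counts, summed to 55.1 CPM in labelled knockout replicate 4 and 8.90 to 14.3 CPM in the other 3 labelled knockout libraries, against 2.69 to 15.03 CPM in the wild-type group. The TMM factor, which scales each library, was 0.835 in labelled knockout replicate 4 and 0.962 to 1.13 in the other 7 libraries. The 16 p53 target genes summed to 627, 664, 447 and 948 CPM in labelled knockout replicates 1 to 4, against 473, 558, 608 and 514 CPM in wild-type replicates 1 to 4, with 13 above 0 and none past the test. Their mean log2 CPM ranked the libraries otherwise, at 4.64, 4.59, 3.90, 4.05 in labelled knockout replicates 1 to 4, against 4.16, 4.00, 4.30, 3.90 in wild-type replicates 1 to 4. Goblet cell markers had 5 of 10 above 0 (median log2 fold change -0.0024), and their sum in labelled knockout replicate 4, 9231 CPM, lay inside the wild-type range of 7295 to 12418 CPM. Enteroendocrine markers had 7 of 13 above 0 and summed lowest, to 268 CPM, in labelled knockout replicate 2. Tuft cell markers had 11 of 11 tested below 0 (median -0.48, none past the test), with the lowest sum, 123 CPM, in wild-type replicate 1. The part of any of these in the replication values was not tested.

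**Figure D5:**
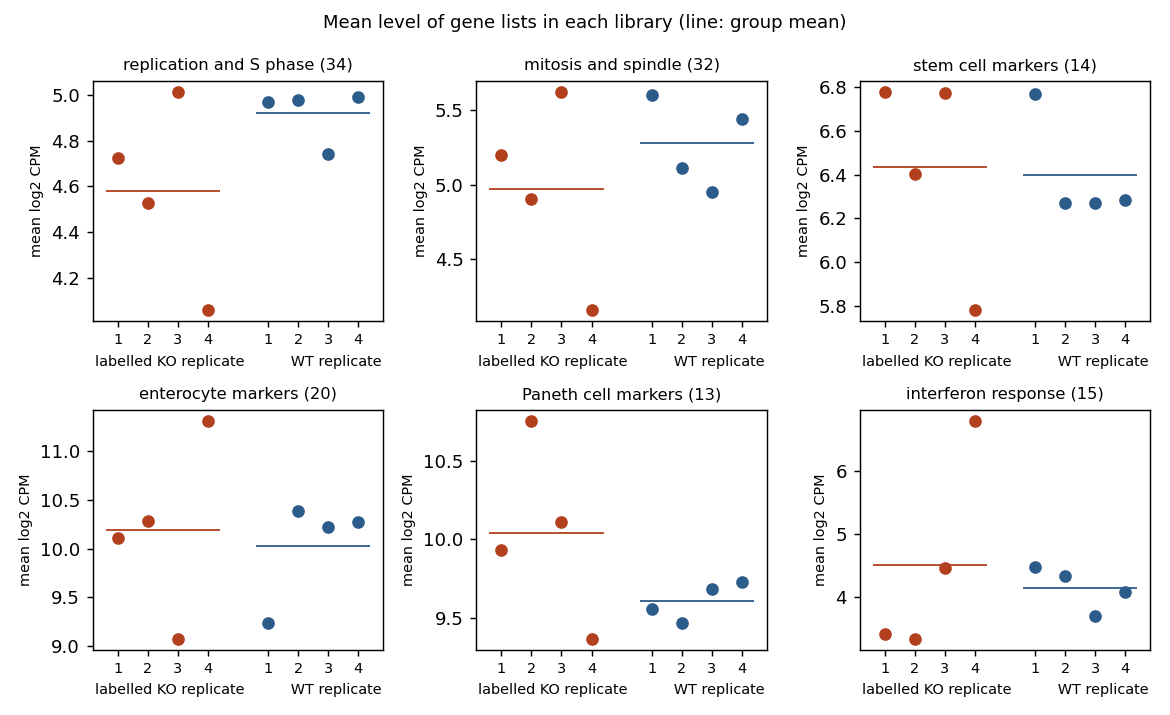
Mean log2 CPM of 6 gene lists in each library, labelled knockout on the left, with lines at the group means. Labelled knockout replicate 4 is the lowest point for replication, mitosis, stem cell and Paneth cell lists and the highest for enterocyte markers and interferon response genes.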

How the data were processed

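Per the file headers, the deposited table gives whole-number counts, FPKM, group means and fold changes with p-values per gene. Reads were aligned with HISAT2, and DESeq2 was also named, both per the submitters' processing notes. No source used here states how reads were counted, with what strand setting, or on which build, but 99.5% of 55144 gene identifiers have the coordinates of GENCODE M21 (GRCm38), used here for positions. The FPKM the authors deposited are counts over gene length times 1 constant per library, as checked on the values. Of the p-values and log2 fold changes that the authors deposited, only counts are given, where named, and the group means, a signal the authors deposited, were not used. The deposited heat map table was not used.

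The test on counts was that of edgeR 4.0.16 under R 4.3.3 (quasi-likelihood, robust, TMM, filterByExpr, Benjamini-Hochberg over 14897 genes, threshold 0.05). The SE is the absolute log2 fold change over the square root of F. CPM use TMM library sizes, and list means use a prior count of 2. Ratios use a pseudocount of 0.5 CPM. Python 3.11.15 ran the rest. Members and lists were chosen with earlier results of these data known. All 34 members are named. Of each pathway list up to 3 genes past the threshold, otherwise the 2 with the smallest p, and of each marker list the 2 most abundant could be named. Alternatives were RLE factors, DESeq2 1.42.0, limma-voom (limma 3.58.1), no filter, 5 CPM in 4 libraries, a replicate block and each library left out. Tests were checked on simulated data. Depth was 13879472 to 17368666 counts, and libraries of 1 group always differed by more than sampling noise (lowest chi-square per degree of freedom 28.9).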

Additional observations from a re-analysis of the deposited data

Results flagged for a closer look

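Of 82 groups of 4 libraries examined (each gene, each ratio and the mean of the 34), 7 held a library far from the other 3. Chance gives about 1 in 20 for separate groups. These groups share libraries and genes, so the 7 cannot be set against that share. Labelled knockout replicate 3 was high for Orc1 (7.60 CPM) and Ccne1 (10.4 CPM) within its group. In the wild-type group, replicate 3 was low for Pole (26.4 CPM), for Chaf1a (24.0 CPM), for the log2 ratio of Pole over Pold1 (-1.07) and for the mean log2 CPM of the 34 genes (4.74), and replicate 2 was high for Pcna (145 CPM). Labelled knockout replicate 4 was not set apart by this measure in any of the 82.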

How the results depend on the processing

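None of the 34 genes was called under any of the 14 alternatives (0 each time), and none of the 6 ratios passed its test. The median log2 fold change of the 34 was -0.32 with RLE factors, DESeq2, no filter or a filter of 5 CPM in 4 libraries (33 genes left), -0.35 with limma-voom and -0.48 to -0.17 with single libraries left out. With the replicate number as a block it was -0.36 and none was called. The labels do not say whether libraries with the same number belong together. Deviations of same-numbered libraries correlated at 0.075, 0.035, -0.39 and -0.087, against -0.19 to 0.32 for differently numbered libraries of the 2 groups. The block changed no call, but none of the 34 was called without it either. Whether the numbers pair the libraries was not tested.

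Of the medians with single libraries left out, -0.48 was the value when labelled knockout replicate 3 was dropped, and -0.17 when replicate 4 of that group was. Of 541 alternative values of single genes and ratios, 524 kept the direction and the side of the threshold. That count reflects direction only, because no gene or ratio passed under any setting, and the alternatives reuse the same libraries. Orc6 turned below 0 with limma-voom (-0.00081), the replicate block (-0.015) and 4 single libraries left out (range over libraries left out -0.11 to 0.15), and Fen1 ranged from -0.31 to 0.18. Ratios that turned with 1 library left out ranged from -0.073 to 0.033 (Rrm2 over Rrm1), -0.13 to 0.069 (Cdt1 over Gmnn), -0.17 to 0.021 (Ccne1 over Ccne2) and -0.21 to 0.10 (Cdc6 over Orc1). The causes were not tested. Fen1 had 17 to 62 counts per library labelled knockout and 25 to 71 per wild-type library.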
